A study of Mus musculus with 6 samples.

Results

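Transforming growth factor beta (TGF-beta) signalling was followed through 10 of its genes, taken by symbol from a table of 54532 genes: the ligands Tgfb1, Tgfb2 and Tgfb3, the receptors Tgfbr1, Tgfbr2 and Tgfbr3, the latency protein gene Ltbp1, the signal transducer Smad3, the inhibitor Smad7 and the induced matrix protein gene Tgfbi. All 10 symbols were found, 1 row each, and 9 of them reached the mean of 1 FPKM (fragments scaled by gene length and library size) over the libraries that was needed for testing. Poly-A RNA had been sequenced from the CD45-negative fraction of tumours formed under the skin of wild-type C57BL/6 mice by MC38, a colon carcinoma line of the mouse, in 3 libraries of wild-type tumours and 3 of tumours whose cells carried an Npm1 knockout made by CRISPR/Cas9. The hosts were thus of the same kind in both groups, and the fraction had been isolated with CD45 microbeads. The labels do not say whether the knockout was a single clone, how old the mice were or whether each library stands for its own animal. The p-values therefore cover the spread among these 6 libraries, and that spread may be technical.

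TGF-beta ligands are secreted in a latent form, bound to a propeptide and to a latent binding protein such as LTBP1, and become active once integrins or proteases release them. The active ligand joins the kinases encoded by Tgfbr2 and Tgfbr1, helped by the co-receptor betaglycan from Tgfbr3, and the receptor phosphorylates SMAD2 and SMAD3, which enter the nucleus with SMAD4. Smad7 is itself induced by the pathway and shuts the receptor down, and TGFBI is an adhesive matrix protein named for its induction by the ligand. In tumours TGF-beta is known for curbing cell growth early, for fibroblast activation and matrix deposition, and for dampening immune cells.

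In the knockout libraries the ligand Tgfb1, the transducer Smad3 and the inhibitor Smad7 fell, and none of the members rose. Tgfb1 went from 23.0 ± 2.45 to 9.96 ± 1.10 FPKM, Smad3 from 18.4 ± 0.842 to 10.3 ± 1.04 FPKM and Smad7 from 28.2 ± 4.59 to 18.5 ± 2.65 FPKM (SD, n = 3 each). That is 3 of 9 tested members lower, where 8.3% of all 11287 tested genes were lower and 14.2% were called in either direction. The median change of the 9 members was -0.40 on the log2(FPKM + 1) scale, beside 0.02 over all tested genes. Of the 3 falls, only that of Tgfb1 also passed the test once a trend with transcript length and GC content had been removed from the libraries. In bulk RNA, fewer cells of a type and less RNA per cell cannot be told apart.

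The sequences just upstream of the start sites are shown for Tgfb1 and Smad3, the members with the largest falls whose sequence is given here. Windows were taken from RefSeq on build GRCm38.p6, where 7 of the 10 members had one. Each window holds the 250 bases before the start, read 5′ to 3′ on the gene's strand, at chr7:25686752-25687001 (plus strand) for Tgfb1 and at chr9:63757995-63758244 (minus strand) for Smad3. Capitals mark the GC box GGGCGG on either strand.
Tgfb1: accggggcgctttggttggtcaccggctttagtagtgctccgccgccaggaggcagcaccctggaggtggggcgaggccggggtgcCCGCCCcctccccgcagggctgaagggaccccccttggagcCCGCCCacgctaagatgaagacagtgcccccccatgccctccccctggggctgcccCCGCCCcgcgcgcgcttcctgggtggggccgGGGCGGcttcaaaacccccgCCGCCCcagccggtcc
Smad3: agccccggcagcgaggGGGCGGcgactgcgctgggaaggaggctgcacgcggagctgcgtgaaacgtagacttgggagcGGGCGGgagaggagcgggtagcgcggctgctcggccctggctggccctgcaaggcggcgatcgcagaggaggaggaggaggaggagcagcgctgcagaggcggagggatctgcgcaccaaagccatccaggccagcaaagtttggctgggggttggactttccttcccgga
The Tgfb1 window held 5 GC boxes and the Smad3 window 2, and 32.7% of all 32851 RefSeq windows of this length held at least 1. Neither window held the SMAD-binding element CAGAC, found in 42.2% of windows, the SMAD palindrome GTCTAGAC, found in 0.167%, or the AP-1 motif TGANTCA, found in 6.75%, all searched on both strands. The palindrome does not contain the 5-letter element on either strand. These are matches of letters, and the deposited values hold no measurement of promoters.

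The libraries held 16917778 to 18662688 fragments each, with 18497 to 19660 genes above 0. The deposited level of the targeted gene did not separate the groups: Npm1, which encodes the nucleolar chaperone nucleophosmin, was at 234, 169 and 195 FPKM in wild type, and the libraries labelled knockout had 191, 159 and 128 FPKM. The ranges overlapped (log2 change -0.33, SE 0.197, limma adjusted p = 0.268). Once a trend with transcript length and GC content was taken out, Npm1 was lower in the knockout (-0.73, 95% interval -1.04 to -0.43, limma adjusted p = 0.0438). With the trend removed, 0 genes passed in a fit blocked on replicate number or without wild-type replicate 3. Npm1 thus did not pass in either. Wild-type replicate 1 and knockout replicate 3 stood apart from their groups: the median gene differed by 0.25 to 0.27 and by 0.24 to 0.28 on the log2 scale between each of them and its fellow replicates, against 0.16 and 0.13 between the other replicates of the group. Of the epithelial markers, Epcam had 0 to 1 fragment per library, and the summed level of the 10 listed ran from 2.20 to 2.76 FPKM in wild type and from 1.59 to 2.43 FPKM in the knockout. Lgals4 was the highest of them. Fibroblast genes were abundant, with a summed level of 243.5 to 320 FPKM in wild type and 370 to 537 FPKM in the knockout over 10 genes. The most abundant of them went both ways in the group means. Dcn (78.5 and 202 FPKM) and Dpt (23.1 and 110.5 FPKM) were higher in the knockout, and Col1a1 (69.1 and 18.6 FPKM) was lower. Col1a2 (105.2 and 74.0 FPKM) was lower without passing (limma adjusted p = 0.0929).

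**Figure D1:**
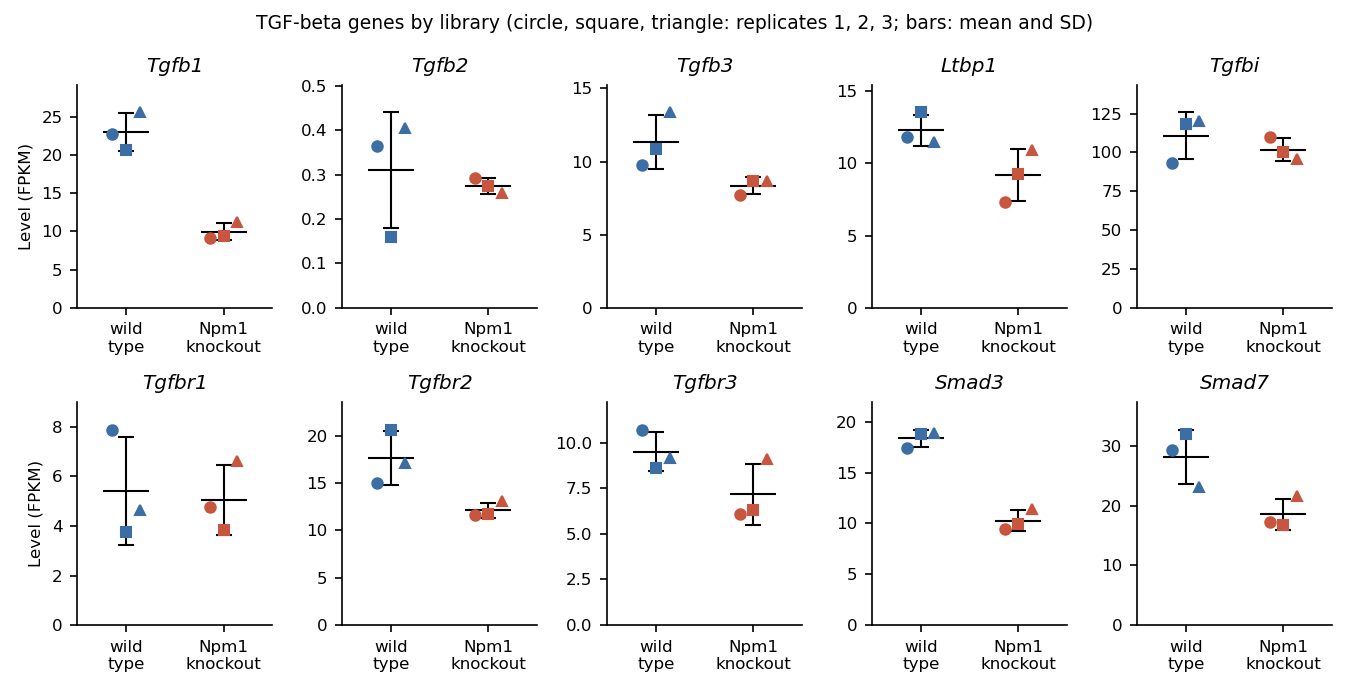
Level of each of the 10 TGF-beta genes (vertical axis, FPKM, from 0) in the 3 wild-type and 3 Npm1 knockout libraries; symbols mark the replicate, and bars the mean and SD. The Tgfb1, Smad3 and Smad7 points of the knockout lie below all wild-type points, while those of Tgfbi and Tgfbr1 are mixed.

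Among the ligands, Tgfb1 (ENSMUSG00000002603, chromosome 7, 25687002 to 25705077, plus strand, GRCm38) is the form made most widely by tumour and immune cells. It was measured at 22.7, 20.7 and 25.6 FPKM in wild type and at 9.20, 9.46 and 11.2 FPKM in the knockout. Every knockout library lay below every wild-type library, and the wild-type mean was 2.31 times the knockout mean. The log2 change was -1.13 (SE 0.147, 95% interval -1.46 to -0.80, limma adjusted p = 0.0111). These levels rested on 1803 to 2175 fragments per wild-type library and 841 to 1062 per knockout library, and no exon of another annotated gene overlaps its exons. Taking out the length and GC trend gave -1.13 as well (limma adjusted p = 0.0318). With the trend in place the change did not pass without wild-type replicate 3 (-1.06, limma adjusted p = 0.0584). With no filter on low values it was at a limma adjusted p of 0.0851, as was Smad3. With the trend removed it missed the threshold under the replicate block (limma adjusted p = 0.0663) and whenever a library other than wild-type replicate 2 or knockout replicate 3 was left out (limma adjusted p from 0.0535 to 0.141).

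Tgfb3 (ENSMUSG00000021253, chromosome 12, 86056745 to 86079041, minus strand), a ligand known for its part in palate closure and in mesenchymal tissue, stood at 9.75, 10.9 and 13.4 FPKM in wild type and at 7.69, 8.68 and 8.67 FPKM in the knockout. The groups did not overlap, yet the change of -0.39 (SE 0.154, 95% interval -0.73 to -0.05) did not pass (limma adjusted p = 0.11). Its exons share 257 bases and 163 bases with transcripts annotated on the opposite strand, and the strand setting of the counting is not given in the sources used here. Tgfb2 (ENSMUSG00000039239, chromosome 1, 186622792 to 186705989, minus strand), a ligand needed in heart and eye development, was almost silent at 0.16 to 0.40 FPKM in wild type and 0.26 to 0.29 FPKM in the knockout. It had 94 fragments over the wild-type libraries (exact 95% Poisson interval 76.0 to 115) and 87 over the knockout libraries (69.7 to 107.3). These intervals cover counting error only. The mean of Tgfb2 over the libraries, 0.29 FPKM, was below the 1 FPKM needed for testing. Its exons share 124 bases with a transcript annotated on the opposite strand.

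The ligand transcripts had a smaller Tgfb1 share in every knockout library. Tgfb1 supplied 69.2, 65.3 and 65.0% of the summed FPKM of the 3 ligands in the wild-type libraries, against 53.5, 51.4 and 55.7% in those of the knockout. The groups did not overlap, and the mean share was 13.0 percentage points apart (66.5 ± 2.33% and 53.5 ± 2.16%, SD, n = 3 each; exact two-sided permutation p = 0.1, the smallest that 3 against 3 can give). Tgfb3 made up nearly all of the remainder in each library. The deposited FPKM divides Tgfb1 fragments by 5042 bases of summed exons, while its longest transcript has 2573 bases. For Tgfb3 both lengths are 3383 bases, so the size of the shares depends on the length used.

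**Figure D2:**
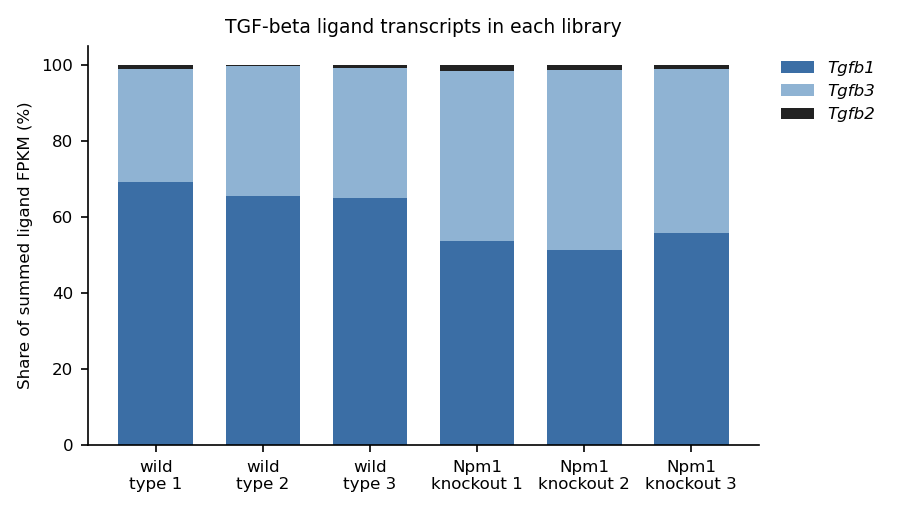
Share of each TGF-beta ligand in the summed ligand FPKM (vertical axis, percent) for each library. Tgfb1 takes 65.0 to 69.2% in wild type and 51.4 to 55.7% in the knockout, Tgfb3 most of the rest, and Tgfb2 a thin band at the top.

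Ltbp1 (ENSMUSG00000001870, chromosome 17, 75005568 to 75392512, plus strand), which ties the latent ligand to the matrix, was at 11.9, 13.5 and 11.5 FPKM in wild type and at 7.35, 9.29 and 10.9 FPKM in the knockout. Knockout replicate 3 came close to the wild-type range without entering it. The change of -0.40 (SE 0.164, 95% interval -0.76 to -0.03) did not pass (limma adjusted p = 0.126), and it stood at 0.13 once the length and GC trend was taken out (limma adjusted p = 0.475). Its longest transcript, at 6671 bases, was longer than that of 91.3% of tested genes.

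The receptors showed smaller differences, none of which passed. Tgfbr2 (ENSMUSG00000032440, chromosome 9, 116084293 to 116175360, minus strand), the kinase that binds the ligand first, was at 14.98, 20.6 and 17.2 FPKM in wild type and at 11.6, 11.7 and 13.1 FPKM in the knockout. The groups did not overlap and the change was -0.49 (SE 0.154, 95% interval -0.83 to -0.15, limma adjusted p = 0.0578), just short of the threshold of 0.05. It was -0.06 (95% interval -0.44 to 0.31) with the trend removed, for a transcript of 8092 bases, longer than that of 95.8% of tested genes. With the trend in place it passed when wild-type replicate 1 (-0.59, limma adjusted p = 0.0393) or knockout replicate 3 (-0.54, limma adjusted p = 0.0435) was left out.

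Tgfbr1 (ENSMUSG00000007613, chromosome 4, 47353222 to 47414931, plus strand), the kinase that phosphorylates the SMADs, was the lowest receptor, at 7.89, 3.75 and 4.64 FPKM in wild type and 4.75, 3.83 and 6.61 FPKM in the knockout. The groups were intermixed, with wild-type replicate 1 highest and wild-type replicate 2 lowest. Its difference was -0.06 with a 95% interval from -0.61 to 0.49 (limma adjusted p = 0.886), so a change of some size in either direction is within the error. Tgfbr3 (ENSMUSG00000029287, chromosome 5, 107106570 to 107289629, minus strand), which hands ligand to Tgfbr2, was at 10.7, 8.63 and 9.18 FPKM in wild type and at 6.12, 6.29 and 9.10 FPKM in the knockout. Knockout replicate 3 lay inside the wild-type range and the change of -0.38 (95% interval -0.76 to 0.01) did not pass (limma adjusted p = 0.158). The exons of Tgfbr3 share 297 bases with a transcript annotated on the same strand.

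The receptor shares overlapped between the groups. Tgfbr2 supplied 44.6, 62.5 and 55.4% of the summed FPKM of the 3 receptors in the wild-type libraries, against 51.7, 53.7 and 45.4% in those of the knockout. The groups overlapped (54.2 ± 9.02% and 50.3 ± 4.33%, SD, n = 3 each, exact two-sided permutation p = 0.5), and without wild-type replicate 2 the difference turned from -3.91 to 0.27 percentage points.

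Inside the cell, Smad3 (ENSMUSG00000032402, chromosome 9, 63646767 to 63757994, minus strand) carries the signal to the nucleus and binds DNA. It was at 17.4, 18.8 and 18.9 FPKM in wild type and at 9.43, 9.98 and 11.4 FPKM in the knockout. The groups lay well apart, with a wild-type mean 1.79 times the knockout mean and a log2 change of -0.79 (SE 0.138, 95% interval -1.09 to -0.48, limma adjusted p = 0.0148). Taking out the length and GC trend gave a change of -0.37 (95% interval -0.57 to -0.18, limma adjusted p = 0.0582) and no longer passed, although the corrected log2 levels still did not overlap, at 4.26 to 4.32 in wild type and 3.91 to 3.93 in the knockout. The call also ended without wild-type replicate 3 (limma adjusted p = 0.0725), knockout replicate 1 (0.0715) or knockout replicate 2 (0.0587), with changes of -0.76, -0.73 and -0.77.

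Smad7 (ENSMUSG00000025880, chromosome 18, 75367529 to 75395935, plus strand), the feedback inhibitor, was at 29.3, 32.1 and 23.1 FPKM in wild type and at 17.2, 16.8 and 21.6 FPKM in the knockout. Wild-type replicate 3 and knockout replicate 3 came close to each other, and the groups did not overlap. Its change of -0.57 (SE 0.168, 95% interval -0.95 to -0.20) passed narrowly (limma adjusted p = 0.0478). It did not pass with any library other than knockout replicate 3 left out (limma adjusted p from 0.0803 to 0.179, changes of -0.70 to -0.48), under the replicate block (limma adjusted p = 0.102), after rescaling to TPM (0.0738) or with the trend removed (-0.14, limma adjusted p = 0.592). Of the 9 other settings with the trend in place and all libraries kept, the block and TPM among them, it passed in 2.

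Tgfbi (ENSMUSG00000035493, chromosome 13, 56609523 to 56639562, plus strand), the induced matrix protein gene, was the most abundant member, higher in mean level than 95.8% of tested genes. It was measured at 93.2, 118 and 120 FPKM in wild type and at 109.7, 100.3 and 95.4 FPKM in the knockout. The groups overlapped fully, and the log2 difference was -0.11 with an SE of 0.161 (limma adjusted p = 0.65). Its 95% interval, from -0.47 to 0.25, does not reach the interval of Tgfb1.

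Across the members, 9 of 9 changes were below 0, where 47.6% of all tested genes were, and in 6 members every knockout library lay below every wild-type library, as in 19.6% of all tested genes (35.6% without overlap in either direction). With the trend removed 8 of 9 were below 0, as were 5405 of 11269 genes. Leaving out 1 library there gave 6 to 8 of 9 below 0. The median with the trend removed was -0.14 beside 0.01 for all genes, and 1 member was lower, beside 1.38% of 11269 genes (2.5% in either direction). The shift that the surface over length and GC content put on each member ran from -0.52 for Ltbp1, -0.44 for Smad7, -0.43 for Tgfbr2 and -0.41 for Smad3 to -0.16 for Tgfb3 and 0.11 for Tgfbr1. For Tgfb1 it was under 0.01 in size when its longest transcript of 2573 bases was used. Its summed exons come to 5042 bases, and with summed exon lengths, a choice made after seeing the data, the change was -0.90 (limma adjusted p = 0.0327) and Smad3 also passed (-0.48, limma adjusted p = 0.045).

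The number of members called lower also rested on single libraries, as did the number called over all tested genes. Leaving out wild-type replicate 3 gave 0, either of knockout replicates 1 and 2 gave 1, wild-type replicate 2 gave 2, wild-type replicate 1 gave 3 and knockout replicate 3 gave 6. In the same order, these fits called 0.062%, 0.78% and 1.85%, 7.89%, 12.1% and 24.9% of all tested genes in either direction. By deposited level in wild type the order was Tgfbi, Smad7, Tgfb1, Smad3, Tgfbr2, Ltbp1, Tgfb3, Tgfbr3, Tgfbr1 and Tgfb2. These levels divide by summed exon length, 5042 bases for Tgfb1, whose longest transcript has 2573. The place of Tgfb1 in the order therefore depends on the length used. Neighbours whose wild-type ranges overlapped were Smad7 and Tgfb1, Smad3 and Tgfbr2, Ltbp1 and Tgfb3, and Tgfb3 and Tgfbr3.

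**Figure D3:**
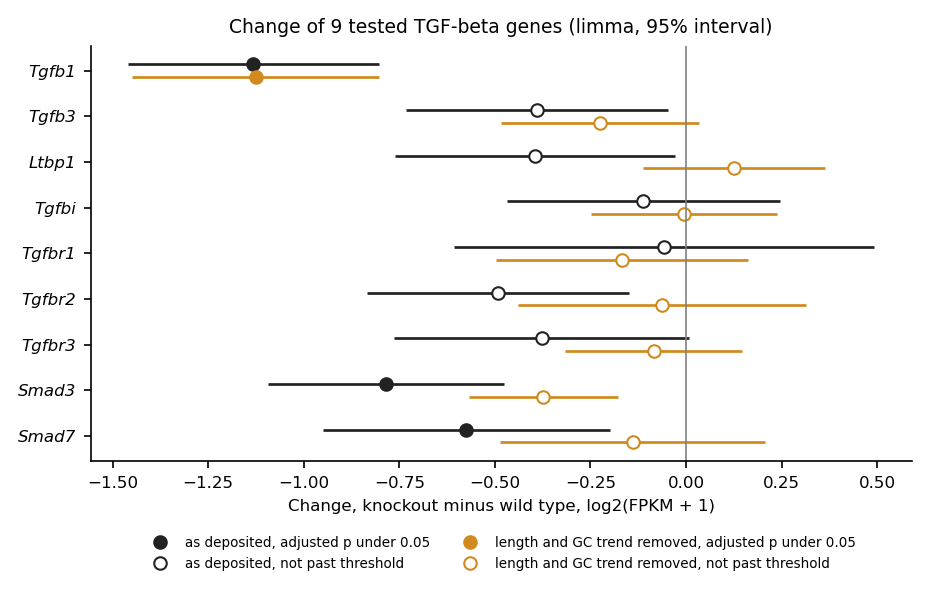
Change in log2(FPKM + 1) from wild type to knockout (horizontal axis) with limma's 95% interval for the 9 tested members, as deposited and with the length and GC trend removed; filled points have an adjusted p under 0.05. Tgfb1 stays at -1.13 in both, while Smad3 goes from -0.79 to -0.37 and Smad7 from -0.57 to -0.14.

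Around the members, 101 further genes of the pathway were read from the same test in 6 lists. Of the 83 that were tested, 24 fell and 5 rose, beside 8.3% and 5.91% of all tested genes, with a median change of -0.35. With the trend removed 3 fell and 1 rose, beside 1.38% and 1.12%, and the median was -0.14. Against 29 passing in all with the trend in place, 0 passed once wild-type replicate 3 was left out, 3 once knockout replicate 1 was and 6 once knockout replicate 2 was. Over all tested genes these fits called 0.062%, 0.78% and 1.85%.

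Genes for ligand latency and activation counted 7 falls and 0 rises among 16 tested (median -0.55), beside 8.3% and 5.91% of all tested genes. Ltbp2, Ltbp3 and Ltbp4, named as genes of the same family as Ltbp1, were far more abundant than Ltbp1, and each fell. Ltbp4, at 241, 294 and 339 FPKM in wild type and 100.1, 101.3 and 168 FPKM in the knockout, changed by -1.26 (SE 0.23, limma adjusted p = 0.0158). The knockout libraries were all lower, replicate 3 least so. Ltbp2 went from 56.1 ± 8.91 to 29.6 ± 3.78 FPKM and Ltbp3 from 64.3 ± 9.73 to 36.5 ± 5.72 FPKM. Furin, the protease that cuts the ligand from its propeptide, fell by 1.13 on the log2 scale (33.9 ± 8.45 to 14.7 ± 2.30 FPKM, limma adjusted p = 0.0154). Itgb3, an integrin chain of a receptor that can release the ligand, fell by 0.63 from a low level, and Plau, the urokinase that activates plasminogen, fell by 0.60. With the trend removed none of the 16 passed: Ltbp4 was at -0.53, Ltbp2 at -0.13, Ltbp3 at -0.14, Furin at -0.54, Itgb3 at -0.19 and Plau at -0.75 (limma adjusted p from 0.0506 to 0.536). By summed exon length Plau passed (-0.80, limma adjusted p = 0.0463), while Ltbp2 was at -0.24, Ltbp3 at -0.36 and Itgb3 at -0.33 without passing. The integrin chains Itgb6 and Itgb8, best known as activators of latent TGF-beta, were below 0.10 FPKM on average, and so out of the test.

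Among 10 other superfamily ligands and extracellular antagonists tested, 1 rose and 0 fell (median -0.15), beside 5.91% and 8.3% of all tested genes. The riser was Dcn, decorin, a proteoglycan that binds TGF-beta. It was at 89.2, 68.4 and 78.0 FPKM in wild type and at 299, 144.5 and 163 FPKM in the knockout, with replicate 1 far above the other two (log2 1.28, SE 0.256, limma adjusted p = 0.018). Its change was 0.94 (limma adjusted p = 0.0762) once the trend was taken out. Dcn is also a fibroblast marker, and of the 9 fibroblast markers tested 4 rose and 1, Col1a1, fell, beside 5.91% and 8.3% of all tested genes. With the trend removed 2 of them rose, Dpt and Pi16, and 0 fell, beside 1.12% and 1.38% of all tested genes. The part of fibroblast RNA in the Dcn difference was not tested.

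Of 9 other receptors and co-receptors tested, 2 fell and 1 rose (median 0.03), beside 8.3% and 5.91% of all tested genes. Acvr1, a type I receptor for activins and bone morphogenetic proteins, was at 13.3, 13.7 and 14.3 FPKM in wild type and at 7.64, 6.74 and 9.17 FPKM in the knockout. The groups lay apart, and the fall of 0.74 (SE 0.148, limma adjusted p = 0.018) was 0.74 with the trend removed as well (limma adjusted p = 0.043). With the trend in place the call ended without wild-type replicate 3, knockout replicate 1 or knockout replicate 2 (limma adjusted p from 0.0778 to 0.0831). With the trend removed it ended under the replicate block (limma adjusted p = 0.0841). It also ended there whenever a library other than wild-type replicate 2 or knockout replicate 3 was left out (limma adjusted p from 0.0597 to 0.154). Tgfbrap1, which binds the receptor and SMAD4, fell by 0.69 and was at -0.29 with the trend removed. Nrp1, a co-receptor shared with semaphorins, rose by 0.72 from 0.512 ± 0.066 to 1.51 ± 0.435 FPKM, but reached the filter only through the knockout libraries. It did not pass with the trend removed by longest transcript (0.48) and did by summed exon length (0.67, limma adjusted p = 0.0469). Eng, endoglin, was at 1.27 ± 0.511 and 1.38 ± 0.303 FPKM with overlapping groups (limma adjusted p = 0.798). Endothelial markers had summed levels of 2.05 to 5.02 FPKM in wild type and 0.939 to 1.81 FPKM in the knockout, and none of the 8 reached the filter, Pecam1 being at 0.887 and 0.515 FPKM in the group means.

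Of the other SMAD genes, the receptor-bound Smad2 and the shared Smad4 did not pass. Smad2, the second transducer of the TGF-beta receptor, had 16.6, 15.6 and 14.6 FPKM in wild type, and the knockout libraries 15.1, 15.2 and 16.0 FPKM. The groups overlapped and the change was -0.01 (SE 0.132, limma adjusted p = 0.969). Smad4, the shared partner, was at 32.9 ± 0.934 and 26.7 ± 1.64 FPKM without overlap, and did not pass (-0.29, limma adjusted p = 0.154). Smad5 and Smad1, which carry bone morphogenetic protein signals, fell by 0.62 and 0.51. They were the only 2 of 8 genes of the list to pass, beside 14.2% of all tested genes. Once the trend was taken out, Smad5 kept a change of -0.51 (limma adjusted p = 0.0466) and Smad1 had -0.33 (0.138). With the trend in place both missed the threshold whichever library was left out, apart from knockout replicate 3. With the trend removed Smad5 missed it whichever library was left out.

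Inhibitors and modifiers of SMAD signalling gave 5 falls and 0 rises among 15 tested (median -0.41), beside 8.3% and 5.91% of all tested genes. Ski, a corepressor that blocks SMADs, fell by 0.75 (61.7 ± 2.03 to 36.7 ± 6.27 FPKM, limma adjusted p = 0.0199). Smurf1 and Smurf2, ubiquitin ligases recruited to the receptors by SMAD7, fell by 0.73 and 0.56. Tgif2, another corepressor, and Usp11, a deubiquitinase, fell by 0.64 and 0.65. Once the trend was taken out none of these 5 passed: Ski was at -0.19, Smurf1 at -0.20, Smurf2 at -0.41, Tgif2 at -0.50 and Usp11 at -0.53. By summed exon length Usp11 passed (-0.58, limma adjusted p = 0.0497), and Ski was at -0.35 (limma adjusted p = 0.0953). Under the correction by longest transcript, the deubiquitinase Usp15 passed as higher (0.52, limma adjusted p = 0.0466). Uncorrected, its change was 0.47 and did not pass (limma adjusted p = 0.111). With the trend removed, 0 genes of the 6 lists, Usp15 included, passed under the replicate block. The same held without wild-type replicate 1 or 3, or knockout replicate 1 or 2. Skil, a SMAD corepressor that the pathway itself induces, was at 15.002, 7.21 and 7.87 FPKM in wild type and at 7.19, 6.25 and 11.1 FPKM in the knockout, with overlapping groups (limma adjusted p = 0.564).

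Genes known to be induced by TGF-beta counted 8 falls and 3 rises among 25 tested (median -0.42), beside 8.3% and 5.91% of tested genes. With the trend removed 1 fell and 0 rose, beside 1.38% and 1.12%, and the median was -0.26. Igfbp3, a binding protein of insulin-like growth factors, was at 3.94, 8.43 and 4.70 FPKM in wild type and at 0.665, 1.16 and 1.57 FPKM in the knockout. It fell by 1.62 (SE 0.253, limma adjusted p = 0.0113), and by 1.64 with the trend removed (limma adjusted p = 0.0419). With the trend in place it missed the threshold without wild-type replicate 3 (limma adjusted p = 0.0584). With the trend removed it missed under the replicate block (limma adjusted p = 0.0841). It also missed there whenever a library other than wild-type replicate 2 or knockout replicate 3 was left out (limma adjusted p from 0.0535 to 0.148).

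Fn1, fibronectin, fell by 1.03 (100.6 ± 6.30 to 48.98 ± 6.47 FPKM, limma adjusted p = 0.0111) and was at -0.39 with the trend removed by longest transcript (limma adjusted p = 0.0752) and at -0.48 by summed exon length (limma adjusted p = 0.0469). Col1a1, a collagen I chain, fell by 1.88 from 35.2, 88.1 and 83.9 FPKM to 9.35, 30.3 and 16.1 FPKM, and had a change of -1.17 once the trend was taken out (limma adjusted p = 0.138). Wild-type replicate 1 was the lowest of its group for Col1a1 and close to knockout replicate 2. Postn, periostin, rose by 1.03 (3.01 ± 0.88 to 7.66 ± 4.23 FPKM, limma adjusted p = 0.0456) and the transcription factor gene Snai2 by 1.27 (4.50 ± 0.822 to 12.9 ± 5.77 FPKM, limma adjusted p = 0.0182). Neither passed with the trend removed, at 0.65 and 0.88, and Postn passed in only 2 of the 6 fits that left out a library with the trend in place, those without wild-type replicate 2 or knockout replicate 3. Ccn2, connective tissue growth factor (Ctgf in the file), ranged from 1.42 to 6.02 FPKM in wild type and from 0.987 to 2.38 FPKM in the knockout and did not pass (limma adjusted p = 0.274).

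**Figure D4:**
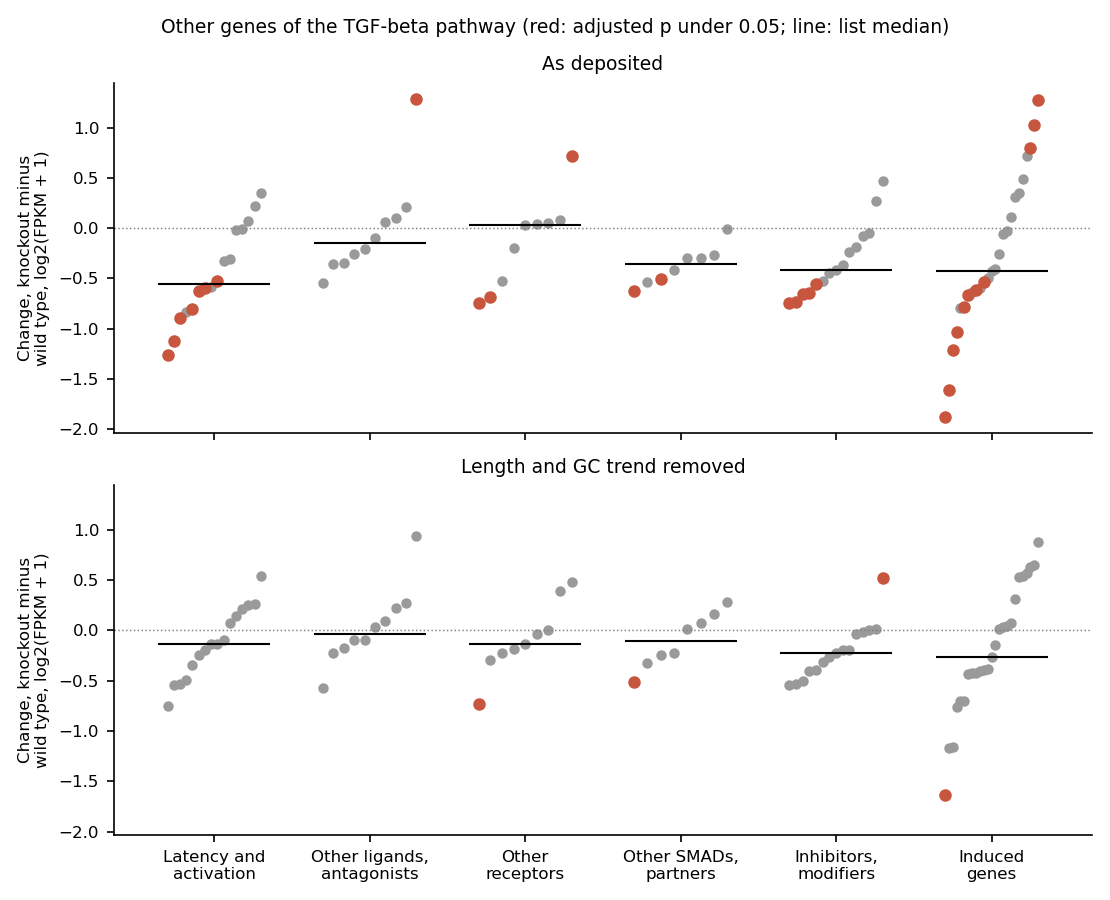
Change in log2(FPKM + 1) from wild type to knockout (vertical axis) of each tested gene in the 6 lists of other TGF-beta pathway genes, as deposited (top) and with the length and GC trend removed (bottom); red points have an adjusted p under 0.05 and lines mark list medians. Red points number 29 at the top, 24 of them below 0, and 4 at the bottom.

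Cells other than tumour cells can carry TGF-beta genes, so their markers were read beside the members. Leukocyte markers summed to 3.60 to 9.10 FPKM over 12 genes in wild type and 4.72 to 6.00 FPKM in the knockout, with Ptprc, the CD45 gene, at 0 to 4 fragments per library and Cd3e at 0 in all. Of these 2 were tested, Lyz2 and Cd68, and neither passed. Platelets, a rich store of TGF-beta protein, were read from 6 markers: Pf4 had 2 to 6 fragments per library, Gp9 had 0, and Itga2b, the only one tested, had 142 to 188 and did not pass (limma adjusted p = 0.742). The 6 summed to 1.91 to 2.52 FPKM in wild type and 1.75 to 2.19 FPKM in the knockout. The 8 pericyte and smooth muscle markers summed to 82.7 to 109.7 FPKM in the wild-type libraries and to 52.9 to 67.7 FPKM in those of the knockout. Of 5 tested, Cspg4, Notch3 and Mcam fell, beside 8.3% of all tested genes, and with the trend removed 0 passed. Cspg4 was at 33.9 and 14.5 FPKM in the group means. The abundant Pdgfrb (37.2 and 24.4 FPKM, limma adjusted p = 0.0516) and Acta2 (20.03 and 16.6 FPKM, limma adjusted p = 0.205) did not pass, and the low Rgs5 and Des were not tested. The part of these cells in the member differences was not tested. Red cell markers ranged from 1.46 to 22.5 FPKM in wild type and from 12.8 to 81.2 FPKM in the knockout, led by Hbb-bs and Hba-a1, with none of 3 tested passing.

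The 5 protein-coding genes whose centred log2 levels lay nearest to those of Tgfb1 over the 6 libraries were Pcdh1, C77080, Tle3, Arhgap23 and Ptpn23, at a root mean square difference of 0.065 to 0.10. Pcdh1, a protocadherin, was at 15.8, 14.98 and 16.9 FPKM in wild type and at 6.94, 6.37 and 7.99 FPKM in the knockout. Since they were picked for following Tgfb1, their log2 changes of -1.195 to -0.97 are a description. Once the length and GC trend was taken out they stood at -0.20 to -0.52, where Tgfb1 was at -1.13.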

How the data were processed

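The authors deposited FPKM values, 1 column per library. Per the submitters' processing notes, the build was GRCm38 (mm10) and the tools DESeq2 1.20.0, featureCounts 1.5.0-p3, HISAT2 2.0.5 and CASAVA 1.8, with no role stated. The sources used here do not give the strand setting, filters or treatment of multi-mapping fragments.

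Multiplied by gene length, 100% of the FPKM values in a library were whole multiples of a single unit (tolerance 0.001 of a fragment), from which the fragments per library were recovered. limma 3.58.1 (R 4.3.3) compared log2(FPKM + 1) between the groups, two-sided, with a mean trend in the variance. The 11287 genes averaging 1 FPKM or more entered, with Benjamini-Hochberg adjustment over all of them and a threshold of 0.05. Changes are knockout minus wild type, and this scale understates those of low genes. For the length and GC correction, a smooth surface (mgcv 1.9.3) over the GC content and log2 length of the longest GENCODE vM21 transcript was fitted per library and subtracted. That transcript need not be the expressed one. Of the gene identifiers, 99.9% were in that annotation. Where a symbol stood on several rows, the row with the highest mean was kept.

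The members and lists were chosen with earlier results of these data known. Named were all members, Npm1, up to 6 called genes per list by size of change with Ccn2, Smad2, Smad4, Skil and Eng, leading markers and the genes nearest to Tgfb1; Usp15, Cd3e, Gp9, Pi16, Notch3, Mcam, Rgs5, Des and the integrins below the filter were named after their values were seen. A gene that this rule also names is not reported here. Alternatives were another pseudocount (0.1), filters, scalings, variance models, array weights, limma-voom on recovered fragments, the correction, each library left out in turn and a fit blocked on replicate number. The fitting procedure was tested on simulated data.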

Additional observations from a re-analysis of the deposited data

How the results depend on the processing

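Over all tested genes the number called was 1604. Removing the length and GC trend left 282 (388 with summed exon length, chosen after seeing the data), rescaling to TPM 961 (251 higher, 710 lower, against 667 and 937), array weights 5454, and limma without any low-value filter 0, where 4543 genes had an unadjusted p under 0.05. Leaving out 1 library gave 7 to 2805, and 0 to 555 with the trend removed as well. Members called, 3 of 9, came to 1 once the trend was taken out, to 7 under array weights and to 0 in unfiltered limma, where 6 had an unadjusted p under 0.05; leaving out 1 library gave 0 to 6, and 0 to 1 with the trend removed. The other pathway genes called, 29 of 83, came to 4 once the trend was taken out (9 by summed exon length), to 52 under array weights and to 0 in unfiltered limma, where 43 had an unadjusted p under 0.05; leaving out 1 library gave 0 to 32, and 0 to 10 with the trend removed.

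Replicate numbers did not pair the libraries: deviations of same-numbered libraries correlated at -0.19, 0.27 and -0.37, and not every library correlated best with its own number. The highest correlation was 0.42, between wild-type replicate 1 and knockout replicate 3, and its cause was not tested. With the replicate block 822 genes, 2 members and 20 pathway genes were called, and 0, 0 and 0 in limma with the trend removed as well, where 2644, 2 and 33 had an unadjusted p under 0.05. Under the block the Tgfb1 share differed by the same 13.0 points (exact p = 0.25, the smallest possible).

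The Tgfb1 share of ligand FPKM kept its direction in all alternatives run (-14.1 to -11.7 points without 1 library). The Tgfbr2 share ran from -8.69 to 0.27 without 1 library. Ltbp1 turned to 0.13 with the trend removed (0.13 under the block, 0.087 with summed exon length, 0.079 to 0.188 without 1 library, against -0.52 at lowest with the trend in place). Smad2 turned to 0.16 with the trend removed, alone or with the block (0.072 to 0.27 without 1 library), and stayed below 0 by summed exon length (-0.23), and turned to 0.0054 after quantile normalization, 0.021 with array weights and 0.0048 with limma-voom. With the trend in place, leaving out 1 library turned Smad2 (-0.055 to 0.035), Tgfbr1 (-0.25 to 0.203; -0.28 at lowest with the trend removed), Skil (-0.45 to 0.067) and Eng (-0.064 to 0.25; 0.54 at highest with the trend removed), and with it removed Tgfbi (-0.071 to 0.037) and Tgfbr2 (-0.23 to 0.070, against -0.59 at lowest with the trend in place). The cause of these changes was not tested. Tgfb2 was limited by depth, at 16 to 40 fragments per library.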
